A study of Mus musculus with 24 samples.

Results

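The Ikaros family of zinc finger genes was followed across carbon-ion-induced thymic lymphomas and normal thymus of the mouse. The 5 members were taken by name, as the rows Ikzf1 to Ikzf5, from 21878 counted genes, and all 5 passed the filter on low counts that left 13121 genes for testing. RNA had been sequenced from 21 thymic lymphomas and 3 normal thymus samples of female mice of the hybrid strain B6C3F1. The mice of all groups carry the same treatment label, which is 4 weekly whole-body doses of 1.6 Gy of carbon ions begun at an age of 4 to 5 weeks. Normal thymus samples have this label too, and their titles bear a mark, 7W, of unexplained meaning. The lymphomas fell into 11 with an Ikzf1 mutation (libraries 2, 4, 7, 9, 10, 12, 13, 14, 15, 16 and 17) and 10 without one (libraries 18, 19, 20, 21, 22, 30, 31, 32, 34 and 35), called the mutated and the unmutated set. Membership of a set follows how the columns of the authors' 2 filtered tables are named, and Ikzf1 levels were not used here to assign it. How the authors called the mutations, and whether any Ikzf1 level entered that, was not given in the sources used here. No source used here says which mutation a lymphoma carried, and counts per gene symbol show neither exons nor isoforms, so a shortened Ikzf1 transcript is counted as Ikzf1.

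Ikaros proteins are transcription factors that bind DNA through a cluster of zinc fingers near the amino terminus and pair with each other through zinc fingers at the carboxy terminus. Ikzf1 encodes Ikaros, Ikzf2 Helios and Ikzf3 Aiolos, which act mainly in lymphoid cells, while Ikzf4 encodes Eos and Ikzf5 the more widely expressed Pegasus. Ikaros recruits the NuRD chromatin remodelling complex, restrains Notch target genes in thymocytes and is a tumour suppressor of the T-cell lineage that is often mutated in mouse thymic lymphoma. Shortened Ikaros proteins without the DNA-binding fingers can still pair with other members.

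The RNA was that of suspended lymphoma cells or thymocytes, all with 1 batch entry in the labels. Libraries held 15 to 36.6 M counts (M for mega) in the lymphomas and 24.5 to 27.5 M in normal thymus. The summed level of 12 thymocyte markers was 12100 to 13200 CPM (counts scaled to a common library total) in thymus, 6210 to 9630 in the mutated set and 5160 to 9380 in the unmutated set. Of the 12 genes, 8 were lower in lymphomas and none higher, where 15.4% of all tested genes were called lower and 15.4% higher. Markers of macrophages and monocytes rose in lymphomas for 10 of 12 genes (102 to 142 summed CPM in thymus, 196 to 874 over both sets), and those of fibroblasts for 8 of 9 (12.2 to 16.2 against 59.3 to 1300). Markers of thymic epithelium fell for 8 of 10 tested genes and those of neutrophils for 9 of 10. Summed B-cell markers were 60 to 97.4 CPM in thymus, 7.83 to 232 in the mutated and 3.67 to 285 in the unmutated set, with 0 of 11 genes called in either comparison. The endothelial marker Cldn5 had no count in either set. In bulk RNA, fewer cells of a type and less RNA per cell cannot be told apart, and the part of these other cells in the results below was not tested.

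The members lie on 4 chromosomes. In GRCm38 with GENCODE M21 annotation, Ikzf1 spans chr11:11685003-11772926 on the plus strand, and Ikzf3 spans chr11:98464902-98546031 on the minus strand of the same chromosome. Ikzf2 is at chr1:69531214-69687245, Ikzf4 at chr10:128630843-128645991 and Ikzf5 at chr7:131388652-131410521, all on the minus strand. The coding stretch for the carboxy-terminal zinc fingers is shown because it is what lets the members pair, and because close copies could share reads. Each stretch is 90 bases of the coding strand, written 5′ to 3′. It lies within the last coding exon, at chr11:11769450-11769539 in Ikzf1, chr1:69538804-69538893 in Ikzf2, chr11:98467028-98467117 in Ikzf3, chr10:128634084-128634173 in Ikzf4 and chr7:131391673-131391762 in Ikzf5. Capitals mark bases identical to Ikzf1, which is therefore in lower case throughout.
Ikzf1: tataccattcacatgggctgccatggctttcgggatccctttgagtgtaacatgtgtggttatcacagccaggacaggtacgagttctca
Ikzf2: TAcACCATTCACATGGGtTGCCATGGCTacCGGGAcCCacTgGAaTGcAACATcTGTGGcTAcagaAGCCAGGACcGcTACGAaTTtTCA
Ikzf3: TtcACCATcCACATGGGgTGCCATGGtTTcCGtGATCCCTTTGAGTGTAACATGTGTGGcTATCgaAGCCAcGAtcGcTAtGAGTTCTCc
Ikzf4: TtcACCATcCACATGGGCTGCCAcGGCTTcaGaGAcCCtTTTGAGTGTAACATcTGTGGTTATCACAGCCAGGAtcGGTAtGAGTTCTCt
Ikzf5: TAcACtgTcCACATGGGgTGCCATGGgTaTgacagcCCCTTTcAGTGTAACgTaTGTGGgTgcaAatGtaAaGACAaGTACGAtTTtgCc

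Against Ikzf1, this stretch was identical at 77.8% of bases in Ikzf2, 82.2% in Ikzf3, 84.4% in Ikzf4 and 66.7% in Ikzf5. In the DNA-binding fingers the order was alike at its ends, with Ikzf4 closest at 85.6% of a 90-base stretch, Ikzf2 at 76.7%, Ikzf3 at 74.4% and Ikzf5 lowest at 53.3%. Ikzf1, its closest relative there and the most distant one are shown, from chr11:11754054-11754143, chr10:128640172-128640261 and, across an intron between exons 3 and 4, chr7:131392528-131393791.
Ikzf1: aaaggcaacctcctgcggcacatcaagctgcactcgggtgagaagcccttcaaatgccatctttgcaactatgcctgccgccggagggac
Ikzf4: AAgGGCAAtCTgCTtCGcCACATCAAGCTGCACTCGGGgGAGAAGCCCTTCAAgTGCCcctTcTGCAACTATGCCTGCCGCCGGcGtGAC
Ikzf5: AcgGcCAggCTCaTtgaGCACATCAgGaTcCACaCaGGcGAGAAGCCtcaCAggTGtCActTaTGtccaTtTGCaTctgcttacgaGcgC

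Over whole coding sequences, pairs of members were identical at 56.2 to 66.1% of aligned bases. The longest run of identical bases shared by any pair was 26 bases, between Ikzf1 and Ikzf3, and it lies in the carboxy-terminal stretch printed above: GATCCCTTTGAGTGTAACATGTGTGG. The other members' overlaps in the annotation were with non-coding models that are not in the count table. Ikzf5 differed, since it overlaps Pstk on the opposite strand and a long model of Fgfr2 on its own strand, and no source used here gives the strand of counting. Part of the Ikzf5 count could therefore come from reads of those genes, or Ikzf5 reads in shared stretches could have been left uncounted.

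Levels can be set side by side between genes only per length, so TPM (transcript abundance corrected for gene length and depth) from the authors' table was used for the order of the members. In the 3 thymus libraries the summed TPM of the family was 654, 483 and 601, and Ikzf1 made up 68.8, 69.5 and 70.9% of it. Ikzf1 was thus the highest member in thymus, at 404 ± 60.3 TPM (mean ± SD, n = 3), followed by Ikzf3 at 85.5 ± 20.8 TPM. Ikzf2 and Ikzf5 followed at 43.0 ± 4.95 and 42.6 ± 6.54 TPM, a difference smaller than either spread, and they changed places between thymus libraries. Ikzf4 was lowest in every library of the study, at 4.45 ± 0.456 TPM in thymus.

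Among unmutated lymphomas Ikzf1 again took the largest share in 10 of 10 lymphomas, at 62.9 ± 9.38% of the family (range 49.5 to 77.7%). Among mutated lymphomas its share was 53.5 ± 21% and ran from 11.3 to 85.1%. Ikzf1 led in 8 of these 11 lymphomas and Ikzf3 in the other 3, which were libraries 2, 13 and 17. Lymphoma 2 departed furthest from the order in thymus. There Ikzf3 made up 41.4%, Ikzf2 30%, Ikzf5 17% and Ikzf1 11.3% of a family sum of 285 TPM. At the other end, Ikzf1 made up 85.1% of 932 TPM in lymphoma 15. The family sum was 637 ± 243 TPM in the mutated set and 359 ± 90.8 TPM in the unmutated set. These shares are descriptions and were not tested.

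**Figure D1:**
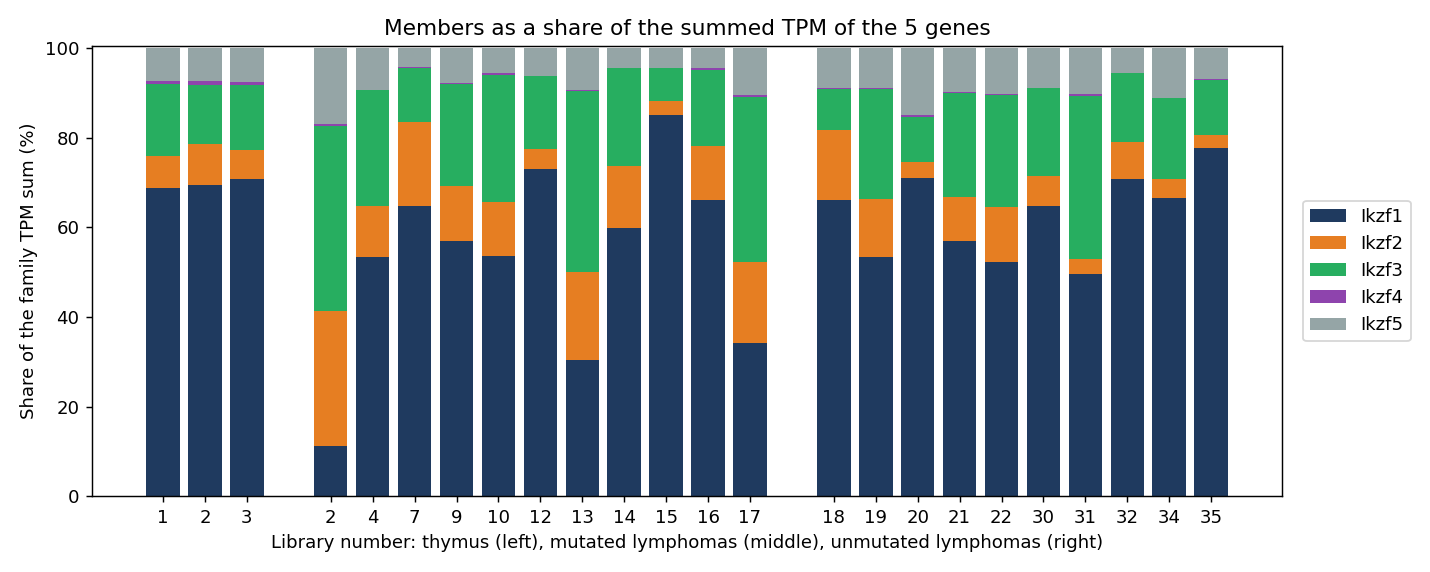
Share of each member (%) in the summed TPM of the 5 genes, 1 bar per library, with thymus at the left, mutated lymphomas in the middle and unmutated lymphomas at the right. Ikzf1 takes 68.8 to 70.9% in thymus but only 11.3, 30.5 and 34.1% in mutated lymphomas 2, 13 and 17, where Ikzf3 takes the largest share.

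For each gene across libraries, CPM scaled by TMM (a correction of library size for differences in composition) was used. Ikzf1, the gene by which the sets are defined, stood at 1050, 835 and 1024 CPM in the thymus libraries. In the mutated set it ran from 79.4 through a median of 835 to 1874 CPM. In the unmutated set it ran from 430 through a median of 540 to 1011 CPM. Of the mutated lymphomas, 5 lay above the thymus range, 5 below and 1 within, whereas 8 of the 10 unmutated lymphomas lay below it and 2 within.

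The mutated lymphomas therefore flanked the other groups on both sides. Those above the thymus range were libraries 7 (1322 CPM), 12 (1483), 14 (1377), 15 (1874) and 16 (1388). Those below it were libraries 2 (79.4 CPM), 13 (279.6), 17 (329.5), 4 (603.1) and 10 (706.7). The SD of log2 levels was 1.37 in the mutated set, 0.381 in the unmutated set and 0.181 in thymus. Over the 21 lymphomas the SD was 1.01, at the 96.6th percentile of 379 genes of similar level.

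Whether a gene spreads more widely in 1 set was tested with limma on deviations from the mean of each set. The mean deviation of Ikzf1 was 1.09 in the mutated and 0.289 in the unmutated set on the log2 scale, a difference of 0.80 (SE 0.26, p = 0.00309). With Benjamini-Hochberg adjustment over all genes it did not pass (adjusted p = 0.195). With deviations taken from the median instead, the difference was again 0.80 (adjusted p = 1.0). Of all genes tested, 0.427% passed, and none of the 5 members did. The other members' adjusted p lay between 0.460 and 0.879.

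The level of Ikzf1 did not pass in any of the 4 comparisons by edgeR's quasi-likelihood test. Each fit shares its estimate of the spread of a gene among all its groups. For Ikzf1 the SD of log2 levels was unlike between them, at 1.37 (mutated), 0.381 (unmutated) and 0.181 (thymus). The log2 fold change was -0.33 (SE 0.50, adjusted p = 0.656) for all lymphomas against thymus. It was -0.05 (SE 0.52, adjusted p = 0.951) for the mutated and -0.70 (SE 0.51, adjusted p = 0.291) for the unmutated set against thymus. In the authors' filtered table, which holds only thymus and the unmutated set, the fall of Ikzf1 was -0.71 and passed (adjusted p = 0.0232). Between the sets it was 0.65 in favour of the mutated set (SE 0.35, 95% interval -0.05 to 1.34, adjusted p = 0.276).

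The series concerns a partial loss of chromosome 11, so the genes near Ikzf1 were set beside it. The 67 genes tested in the first 10 Mb of chromosome 11, which ends before Ikzf1, had a median log2 ratio to thymus below -0.5 in 5 of 21 lymphomas. These were libraries 4 (-0.80), 10 (-0.85) and 13 (-0.74) of the mutated and 30 (-0.83) and 31 (-0.76) of the unmutated set. Lymphoma 17 stood at -0.45, and the remaining 15 lay between -0.12 and 0.13. Lymphoma 2, with the least Ikzf1, had a median of -0.09 there. Ikzf1 was below the thymus range in all 6 lymphomas with a lowered median, at 280 to 707 CPM, and in 7 others. Within 5 Mb on both sides of Ikzf1 only 9 genes were tested, and their median ranged from -0.37 to 1.0, with a mean of 0.06 ± 0.26 (SD, n = 11) in the mutated and 0.37 ± 0.43 (SD, n = 10) in the unmutated set. No median within 5 Mb of Ikzf2, Ikzf3, Ikzf4 or Ikzf5 was below -0.29 or above 0.24 in any lymphoma. The nearest tested gene after Ikzf1, Fignl1, stood at 92.7 ± 19.6 CPM in thymus, 80.9 ± 26.4 in the mutated and 108 ± 41.6 in the unmutated set. The nearest before Ikzf1, Zpbp, was scarce, at 4.01 ± 0.309, 3.59 ± 1.88 and 2.99 ± 1.43 CPM. Neither gene was called for lymphomas against thymus or between the sets. Over the lymphomas, Spearman's rho with Ikzf1 was 0.087 for Fignl1 and 0.626 for Zpbp, and these values were not tested.

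**Figure D2:**
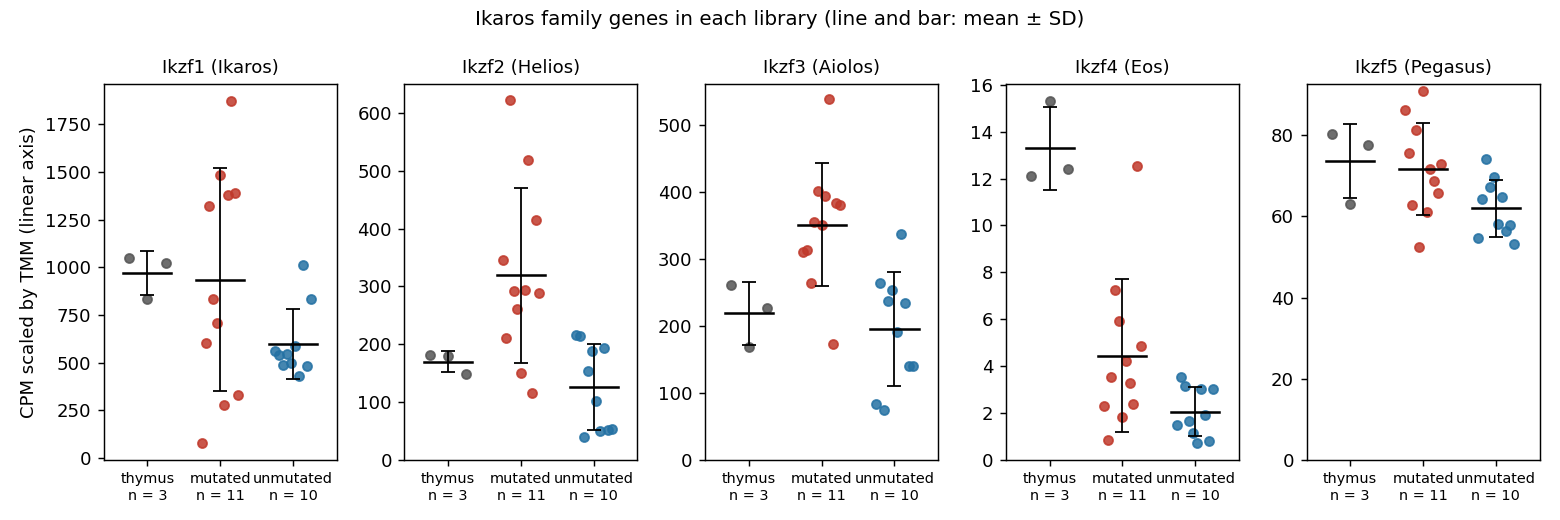
Level of each member in CPM scaled by TMM (linear axes), 1 point per library, in thymus (n = 3), mutated lymphomas (n = 11) and unmutated lymphomas (n = 10), with horizontal lines at the mean and bars of 1 SD. Mutated lymphomas spread from 79.4 to 1874 CPM for Ikzf1, lie mostly above the unmutated ones for Ikzf2 and Ikzf3, and all but 1 lymphoma lie below thymus for Ikzf4.

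Ikzf2 and Ikzf3 were higher in mutated than in unmutated lymphomas, and they were the members called in that comparison. The fit called 706 genes, or 5.38% of those tested, of which 319 (45.2% of the calls, 2.43% of genes tested) were higher in the mutated set and 2.95% of genes tested were lower. On the log2(TPM + 1) scale, 492 of 641 calls (76.8%) were higher there, and both members passed on that scale too (Ikzf2 1.53, adjusted p = 0.0173; Ikzf3 1.04, adjusted p = 0.0234).

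Ikzf2 encodes Helios, which marks early and regulatory T cells and thymocytes under strong receptor signals. It stood at 181.6, 179.1 and 148.7 CPM in thymus. Mutated lymphomas ran from 115 through a median of 292 to 622 CPM, with library 7 highest, then 14 (518) and 16 (415). In the unmutated set it ran from 39.1 through a median of 128 to 216 CPM. Of the mutated lymphomas, 8 of 11 lay above every unmutated one, and the exceptions were libraries 4 (211.1 CPM), 12 (150.1) and 15 (115.2). The unmutated set was itself split in level. Libraries 20, 31, 34 and 35 stood at 39.1 to 52.5 CPM, and the other 6 at 102 to 216 CPM.

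Between the sets Ikzf2 differed by a log2 fold change of 1.34 (SE 0.34, 95% interval 0.68 to 2.00, adjusted p = 0.0255, edgeR), or 2.53-fold. The call held without each lymphoma in turn, with adjusted p between 0.0188 and 0.0489. Against thymus neither set passed. The log2 fold change was 0.91 (SE 0.52, adjusted p = 0.200) in the mutated set, where 9 of 11 lymphomas lay above the thymus range, and -0.43 (SE 0.48, adjusted p = 0.511) in the unmutated set, where 4 lay above and 5 below. Pooled, the lymphomas differed from thymus by 0.42 (SE 0.61, adjusted p = 0.630), and by -0.01 on the log2(TPM + 1) scale.

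Ikzf3 encodes Aiolos, which in normal development rises at later lymphocyte stages and is abundant in B cells. Its thymus libraries stood at 261, 168.5 and 226.6 CPM. Mutated lymphomas ran from 173 through a median of 355 to 539 CPM, and 10 of 11 lymphomas lay above the thymus range. In the unmutated set it ran from 74.4 through a median of 212 to 338 CPM, with 2 above, 4 within and 4 below the thymus range. Lymphoma 15 was the exception in the mutated set and also had the least Ikzf2 and the most Ikzf1 there.

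Ikzf3 differed between the sets by a log2 fold change of 0.84 (SE 0.23, 95% interval 0.40 to 1.29, adjusted p = 0.0332, edgeR), or 1.79-fold. In 7 of 11 mutated lymphomas it was above the whole unmutated range, whose top was lymphoma 31. This call was near the threshold. It was lost without lymphoma 14, 18, 30, 34 or 35, with log2 fold changes of 0.75 to 0.84 and adjusted p between 0.0517 and 0.0703. Against thymus the change was 0.68 (SE 0.35, adjusted p = 0.150) in the mutated set and -0.16 (SE 0.33, adjusted p = 0.736) in the unmutated set. In the authors' filtered table of thymus and the mutated set it was 0.70 and passed (adjusted p = 0.0480). Both comparisons share the 3 thymus libraries.

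Some markers of other cells differed between the sets. In the mutated set, 1 of 9 fibroblast, 2 of 7 erythroid and 1 of 12 thymocyte markers were higher and 1 of 7 plasmacytoid dendritic markers was lower, beside 2.43% of all genes called higher and 2.95% lower. No marker of B cells, macrophages, natural killer cells or thymic epithelium passed. Summed fibroblast markers had a median of 554 CPM in the mutated (106 to 1300) and 242 in the unmutated set (59.3 to 395). Summed erythroid markers had medians of 74.4 (8.38 to 346) and 35.6 CPM (15.3 to 55.9). The part of both in the difference of Ikzf2 and Ikzf3 was not tested.

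**Figure D3:**
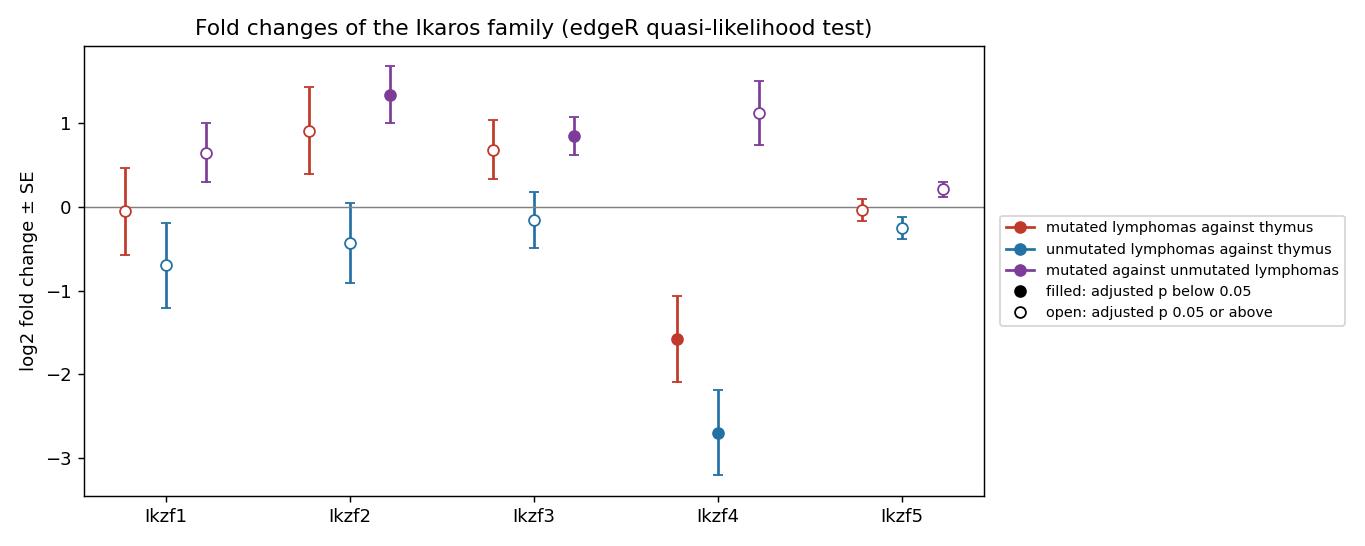
Log2 fold changes with bars of 1 SE for the 5 members in the mutated set against thymus, the unmutated set against thymus and the mutated against the unmutated set, by edgeR. Filled points have an adjusted p below 0.05, which holds for Ikzf2 (1.34) and Ikzf3 (0.84) between the sets and for Ikzf4 (-1.58 and -2.70) against thymus.

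Ikzf4 fell in the lymphomas. It encodes Eos, best known as a partner of Foxp3 in regulatory T cells, and was the scarcest member throughout. It stood at 12.1, 15.3 and 12.4 CPM in thymus. In the mutated set it ran from 0.838 through a median of 3.53 to 12.5 CPM, and in the unmutated set from 0.733 through a median of 1.78 to 3.52 CPM. Of 21 lymphomas, 20 lay below the thymus range, and lymphoma 16 lay within it.

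The log2 fold change for all lymphomas against thymus was -2.0 (SE 0.52, adjusted p = 0.00539, edgeR), or 4.01-fold lower, and Ikzf4 was the only member of the 5 to pass. In this comparison 30.8% of tested genes passed and 15.4% were lower. In the unmutated set the fall was -2.70 (SE 0.51, adjusted p = 0.000391), beside 35.4% of all tested genes called and 17.3% called lower. In the mutated set it was -1.58 (SE 0.51, adjusted p = 0.0268), beside 26% of all tested genes called and 12.9% called lower. The last of these calls was lost without any one of the thymus libraries 1, 2 and 3, at adjusted p = 0.0728, 0.122 and 0.0714, while the log2 fold change stayed between -1.62 and -1.45. In the other 2 comparisons the fall of Ikzf4 passed without each thymus library in turn (highest adjusted p 0.0440 and 0.00408).

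Between the sets Ikzf4 was 1.12 higher in the mutated lymphomas on the log2 scale (SE 0.38, 95% interval 0.37 to 1.87), which missed the threshold (adjusted p = 0.0835). It passed with DESeq2 (1.13, adjusted p = 0.0346) and without lymphoma 4 (1.23, adjusted p = 0.0437). In 5 of 6 alternatives it did not pass, with adjusted p up to 0.159 and log2 fold changes down to 0.51. On log2(TPM + 1) the added 1 is of the size of the mean Ikzf4 level, which was 1.44 TPM (mutated) and 0.63 TPM (unmutated). Fold changes shrink on such a scale. Of 21 fits with a lymphoma left out, Ikzf4 passed between the sets in 1, with adjusted p up to 0.146 in the rest. Of the mutated lymphomas, 6 of 11 lay above the unmutated range. The nearest tested genes beside Ikzf4 behaved unalike. Suox, a sulfite oxidase gene 23903 bases beyond its start, fell from 36.0 ± 2.74 CPM in thymus to 20.3 ± 6.67 and 14.8 ± 3.68 in the sets (log2 fold change -1.02 for all lymphomas, adjusted p = 0.00345). Rps26 on the other side, a ribosomal protein gene, was not called (0.44, adjusted p = 0.146).

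Ikzf5 was the steady member. Pegasus, its product, is the most divergent of the family, as the stretches above show. It stood at 80.3, 63.2 and 77.5 CPM in thymus, at 52.6 through a median of 71.8 to 90.9 CPM in the mutated set, and at 53.1 through a median of 61.2 to 74.1 CPM in the unmutated set. The 3 ranges overlapped. Its SD over the lymphomas was 0.218 on the log2 scale, at the 21.8th percentile of 4368 genes of similar level, while Ikzf2 (1.13) and Ikzf3 (0.743) stood at the 97.4th and 95th and Ikzf4 (0.754) at the 49.4th of theirs. Ikzf5 was not called in any comparison, with log2 fold changes of -0.13 for all lymphomas against thymus (95% interval -0.40 to 0.13, adjusted p = 0.481) and 0.21 between the sets (0.03 to 0.39, adjusted p = 0.159). Acadsb, whose annotated gene begins 80 bases from that of Ikzf5, was higher in the mutated set (0.60, adjusted p = 0.0307). The nearest tested gene on the other side, known only by a number, was not called between the sets (0.09, adjusted p = 0.6435).

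How the members varied together was examined over the 21 lymphomas, for the 10 pairs, on log2(CPM + 1). Permutation p-values were not adjusted over the pairs, and a pair is said to pass below 0.05. Ikzf2 and Ikzf3 rose and fell together over all lymphomas, with a Pearson's r of 0.632 (p = 0.00217 by permutation), while Spearman's rho was 0.644 (permutation p = 0.00231). Without the 2 libraries farthest from the median of Ikzf2, r was 0.651. In a limma regression of all genes on Ikzf3, Ikzf2 passed (adjusted p = 0.0286), beside 6.23% of genes. In that on Ikzf2, Ikzf3 did not (adjusted p = 0.0560, beside 1.55%). Within the sets the relation was weaker and did not pass, at r = 0.499 in the mutated (permutation p = 0.118, n = 11) and 0.293 in the unmutated lymphomas (permutation p = 0.402, n = 10). With the set as a covariate r was 0.36 (p = 0.113). The pooled relation was thus closer than that within either set, and the sets differ in both genes.

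Ikzf1 showed no relation that passed with any other member. Its r over the 21 lymphomas was 0.0716 with Ikzf2, 0.0296 with Ikzf3, 0.168 with Ikzf4 and -0.135 with Ikzf5, with permutation p from 0.465 to 0.896. Without the 2 libraries farthest from the median of Ikzf1, r was 0.374, 0.225, 0.221 and 0.175, so that the sign with Ikzf5 turned. With the set as a covariate, 0.0152% of all genes tested passed in the regression on Ikzf1, and no member did. Ikzf4 gave rho = 0.553 with Ikzf2 (permutation p = 0.0103) and 0.603 with Ikzf3 (permutation p = 0.00463), while the Pearson values, 0.403 and 0.425, had permutation p = 0.0692 and 0.0536. Neither passed over all genes in the regressions on Ikzf4 (adjusted p = 0.301 and 0.270, beside 0.938% of genes), and none of the 4 relations within the sets passed.

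**Figure D4:**
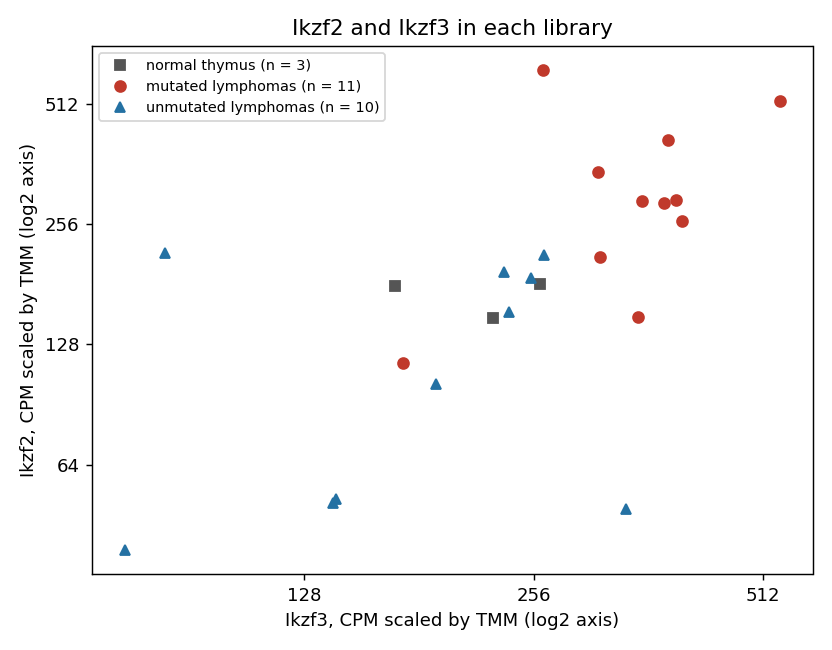
Ikzf2 against Ikzf3 in CPM scaled by TMM (both axes log2), 1 point per library, for thymus (squares, n = 3), mutated (circles, n = 11) and unmutated lymphomas (triangles, n = 10). Most mutated lymphomas lie at the upper right, and r over the 21 lymphomas is 0.632 but 0.499 and 0.293 within the sets.

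The genes with the level most like each member were ranked by rho over the same 21 lymphomas, among 8636 genes with a mean of at least 10 CPM (8637 for Ikzf4). For Ikzf2 these were Nab2 (rho = 0.905), a corepressor of Egr proteins, Cd69 (0.865), an early activation marker, and Cytip (0.849). All 3 also stood at 0.685 or above within each set. Nab2 had 70.2 ± 43.6 CPM in the mutated, 21.2 ± 16.1 in the unmutated set and 117 ± 7.93 in thymus, so that its thymus level lay above both sets, unlike that of Ikzf2. For Ikzf3 they were Dnmt3a (0.875), a DNA methyltransferase, Ing3 (0.831) and Plekhg2 (0.823). Within the mutated set these 3 stood at 0.727, 0.536 and 0.382, and within the unmutated set at 0.77, 0.806 and 0.806. Dnmt3a stood at 248 ± 24.8 CPM in the mutated, 201 ± 25.2 in the unmutated set and 209 ± 18 in thymus. Its group means had the same order as those of Ikzf3, although thymus and the unmutated set differed by less than 1 SD.

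For Ikzf1 the nearest genes were Ssh1 (0.729), Phf20 (0.723) and Cdh22 (0.715). Cdh22, a cadherin, was near absent in thymus at 0.0244 ± 0.0422 CPM and reached 11.4 ± 26.6 and 8.57 ± 18.6 CPM in the sets. For Ikzf4 they were Ndfip1 (0.809), Acp2 (0.808) and Pde4b (0.804), and for Ikzf5 Zbtb39 (0.784), Elmod2 (0.774) and Golga7 (0.729). Pde4b stood at only 0.382 within the unmutated set and Golga7 at 0.418 within each set, while the other values within the sets for Ikzf4 and Ikzf5 were 0.609 or above. All genes named for the 5 members were picked as the highest of a ranking, so their rho is a description.

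Genes that work with the family were then counted by list. Each is given as the genes past the threshold of the fit over all genes and beside the median log2 fold change of all genes, which was 0.07 for lymphomas against thymus and 0.00 between the sets. The counts are to be read against the 30.8% of all tested genes called for lymphomas against thymus (15.4% higher and 15.4% lower) and the 5.38% called between the sets. Of 15 NuRD genes, 4 rose and 1 fell against thymus (median 0.10), near the 30.8% of all genes, with Cdk2ap1 (0.76, adjusted p = 0.00625), Gatad2a (0.37, adjusted p = 0.00832) and the scarce Chd5 (1.96, adjusted p = 0.0106) among the rises. None of the 15 passed between the sets. Of 14 further partners in the Sin3, CtBP and SWI/SNF complexes, 2 rose and 2 fell against thymus (median -0.13), again near the 30.8% of all genes. The corepressor Sin3b fell from 292 ± 38.9 CPM in thymus to 138 ± 13.9 in the mutated and 175 ± 28.9 in the unmutated set (-0.91, adjusted p = 8.195e-05). It was the only gene of the 14 called between the sets (-0.34, adjusted p = 0.0281). The SWI/SNF motor Smarca4 fell (-0.50, adjusted p = 0.00112) while its partner Smarcc1 rose (0.61, adjusted p = 0.00485).

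In human cells, the cereblon ubiquitin ligase degrades Ikaros and Aiolos when bound by thalidomide-like drugs. Of its 5 genes, Ddb1 (0.62, adjusted p = 0.000404) and Cul4b (0.37, adjusted p = 0.0406) rose in lymphomas (median of the list 0.37). Between the sets Crbn, the substrate receptor, was higher in the mutated lymphomas, at 140 ± 26.3 against 95.7 ± 29.2 CPM (0.55, adjusted p = 0.0339). Rbx1, the RING subunit, was lower there, at 104 ± 18.2 against 157 ± 37.8 CPM (-0.60, adjusted p = 0.0128).

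Of 11 tested genes listed as Ikaros-repressed Notch and early T genes, 2 rose and 2 fell in lymphomas, with a median of 2.14. This count is near the 30.8% of all genes. The Notch targets Heyl (6.50, adjusted p = 0.00137) and Hes1 (3.05, adjusted p = 0.00471) rose, and Vpreb1, a surrogate light chain gene, fell (-2.62, adjusted p = 0.000153). None of the 11 passed between the sets (median 0.23). Heyl stood at 1.27 ± 0.213 CPM in thymus, 129 ± 83.1 in the mutated and 99.1 ± 85.9 in the unmutated set. Hes1 stood at 7.79 ± 1.55, 67.2 ± 33.8 and 61.9 ± 22.9 CPM.

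Of 11 coreceptor and maturation genes, 7 fell against thymus and none rose (median -1.0), beside 15.4% of all genes called lower. Satb1, a chromatin organiser of thymocytes, fell from 3250 ± 155 CPM to 938 ± 276 and 676 ± 216 (-2.0, adjusted p = 6.739e-07). Cd8b1, a chain of the CD8 coreceptor, fell from 1430 ± 122 CPM to 188 ± 156 and 155 ± 186 (-3.05, adjusted p = 0.000295), and Cd3e fell by 1.00 on the log2 scale (adjusted p = 0.00173). Between the sets none of the 11 passed (median 0.45).

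Because Helios and Eos are known from regulatory T cells, 12 genes of those cells were counted, and 4 fell and none rose in lymphomas (median -0.91), beside 15.4% of all genes called lower. They include Tnfrsf4 (-2.50, adjusted p = 7.465e-06), Itgae (-2.82, adjusted p = 0.000729) and Tnfrsf18 (-1.23, adjusted p = 0.0134). Foxp3, the defining factor, had 5.28 ± 0.357 CPM in thymus, 0.453 ± 0.499 in the mutated set and 0.995 ± 1.76 in the unmutated set. Its test is given here only for the mutated set against thymus (-3.53, adjusted p = 0.0108), and not for all lymphomas or the unmutated set. Between the sets only Gpr83 of the 12 was called, and it was lower in the mutated set, at 20.2 ± 17.4 against 78.0 ± 65.3 CPM (-1.95, adjusted p = 0.0418). Ikzf2 had the opposite sign to Gpr83 and the same sign as the median of the list between the sets (0.12).

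Agonist selection genes, which thymocytes switch on under strong receptor signals, were the last list. Of 9 tested, 3 fell and none rose in all lymphomas (median -1.72, beside 15.4% of all genes called lower), namely Nr4a3 (-3.19, adjusted p = 0.000147), Cd69 (-3.0, adjusted p = 0.00100) and Nr4a1 (-1.92, adjusted p = 0.0465). In the unmutated set 5 of 9 fell, beside 17.3% of all genes, and in the mutated set 2 of 9, beside 12.9%, with medians of -2.73 and -1.16. Between the sets 2 of 9 were higher in the mutated set and none lower (median 1.11). These were Egr3, at 11.2 ± 11.6 against 1.72 ± 1.20 CPM (2.70, adjusted p = 0.0137), and Egr1, at 92.8 ± 57.8 against 21.9 ± 18.1 CPM (2.09, adjusted p = 0.0287). Both encode factors induced within minutes to hours of receptor signalling. Nab2, picked above as the gene most like Ikzf2, encodes their corepressor. A link of these genes to the level of Ikzf2 was not tested. Thymus held more of Egr3 and Egr1, at 22 ± 2.36 and 208 ± 31 CPM.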

How the data were processed

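The authors deposited unnormalized counts of reads by gene symbol and a TPM table, both for all 24 libraries. Per the submitters' processing notes edgeR, HTSeq 0.6.1, HISAT2 2.0.1, cutadapt 1.9.1 and SAMtools were used with genome build GRCm38.p6. Their roles, settings and strand were not given in the sources used here. Sets follow the column names of the authors' filtered count tables. The members and gene lists were chosen with earlier results of these data known. Nothing in the labels ties each lymphoma to a separate animal, and p-values therefore reflect only how these samples differ among themselves.

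The count test was that of edgeR 4.0.16 under R 4.3.3 (TMM, filterByExpr, glmQLFit, glmQLFTest), with Benjamini-Hochberg adjustment over 13121 genes and calls at an adjusted p below 0.05. One fit had 2 groups (lymphomas, thymus) and another 3 (thymus and both sets). SE was derived from the fold change and F statistic, and 95% intervals are 1.96 SE wide on each side. Spread and regressions used limma 3.58.1 on log2(CPM + 1), and r and rho were tested with 100000 permutations, two-sided, in Python 3.11.15 with SciPy 1.17.1. Named genes are the 5 members, up to 3 genes of smallest p per list and comparison, and the 3 genes of highest rho per member. Nearest tested genes were named on both sides of Ikzf1 and Ikzf4 and on 1 side of Ikzf5. Those beside Ikzf2 and Ikzf3 are not named, and none of them was called for lymphomas against thymus or between the sets. Single lymphomas were picked out with their values known. Coding sequences were rebuilt from GRCm38 with GENCODE M21 and aligned with Biopython 1.88.

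Alternatives were RLE normalization, DESeq2 1.42.0, limma-voom, no filter on low counts, log2(TPM + 1), log2(TPM + 0.1), the authors' filtered tables, the centre of the spread, the set as covariate and each library left out. The tests were first tried on simulated data with known changes. There, unchanged genes made up more of the calls than the threshold allows in the comparisons with thymus and, most of all, in the test of spread. Many of the smaller changes were missed. The larger changes were missed in part too, most often in the test of spread.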

Additional observations from a re-analysis of the deposited data

Results flagged for a closer look

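Ikzf2 and Ikzf3 were flagged because their changes against the same 3 thymus libraries differed between the mutated and the unmutated set in edgeR. Thymus cancels in this difference, so the test is the comparison between the sets already given above and adds no further evidence. In the main fit neither gene passed against thymus in either set. The difference was 1.34 on the log2 scale for Ikzf2 (0.91 against -0.43, adjusted p = 0.0255), with 10 of 11 mutated lymphomas above the unmutated median. It was 0.84 for Ikzf3 (0.68 against -0.16, adjusted p = 0.0332), also with 10 of 11 above the unmutated median. For the other members, 8 (Ikzf1), 10 (Ikzf4) and 9 (Ikzf5) of the 11 mutated lymphomas lay above the unmutated median of the gene.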

How the results depend on the processing

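The calls of Ikzf2 between the sets and of Ikzf4 in all and in unmutated lymphomas held under every alternative run. With DESeq2, Ikzf4 also passed between the sets (1.13), where 1275 genes were called. With the authors' filtered tables, Ikzf3 passed in the mutated (0.70) and Ikzf1 in the unmutated set against thymus (-0.71). On log2(TPM + 1) and log2(TPM + 0.1), Ikzf2 in all lymphomas turned to -0.01 and -0.02, and without a filter Ikzf5 in the mutated set to 0.00. The cause was not tested. Those TPM scales moved the median of all genes from 0.07 to -0.06 and -0.10 for all lymphomas, from 0.06 to -0.10 and -0.15 for the unmutated set and from 0.00 to 0.08 and 0.10 between the sets. Of the calls in all lymphomas, 50.0% were higher, against 35.6% on log2(TPM + 1), 38.1% on log2(TPM + 0.1) and 37.5% with limma-voom. For the mutated set against thymus these shares were 50.2, 39.1, 42.0 and 36.3%, and for the unmutated set 51.0, 32.5, 34.3 and 41.2%.

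Leaving out 1 library at a time gave -0.20 to 0.07 for Ikzf1, -1.87 to -1.45 for Ikzf4 and -0.13 to 0.05 for Ikzf5 in the mutated set against thymus. It gave -0.31 to 0.01 for Ikzf3 in the unmutated set, and 0.75 to 0.97 for Ikzf3 and 0.83 to 1.24 for Ikzf4 between the sets. Genes called ranged from 1929 to 4435 for all lymphomas, 1441 to 3904 and 2856 to 4895 for the mutated and unmutated sets, and 301 (without lymphoma 34) to 1221 (without lymphoma 31) between them. The lowest counts against thymus all came without thymus library 2. With the set as covariate, r was -0.03 for Ikzf1 with Ikzf2, -0.08 for Ikzf1 with Ikzf3, 0.36 for Ikzf2 with Ikzf3, -0.17 for Ikzf2 with Ikzf5 and -0.23 for Ikzf4 with Ikzf5. On log2(TPM + 1), r was 0.02 for Ikzf1 with Ikzf5. It was 0.44, 0.46 and 0.52 for Ikzf2 with Ikzf4, Ikzf3 with Ikzf4 and Ikzf3 with Ikzf5. Their permutation p-values of 0.0464, 0.0372 and 0.0165 were below 0.05 only without adjustment over the pairs, which was not made. With the set as covariate, r for the last 3 of these pairs was 0.12, 0.17 and 0.04, and none passed. No paired analysis was possible because the lymphomas and thymus share only the library number 2, which names libraries and not pairs. Only 3 thymus libraries and, for Ikzf4, levels near 1 CPM in some lymphomas limit the precision of these values.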
